A study of Mus musculus with 24 samples.

Results

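The genes of the autotaxin and lysophosphatidic acid (LPA) pathway described here are 7 of the 55401 genes in the count table. They are Enpp2 (autotaxin), the receptor genes Lpar1, Lpar2, Lpar4 and Lpar6, and the lipid phosphate phosphatase genes Plpp1 and Plpp3. They were picked by symbol, and the group was proposed because Enpp2 fell from day 14 to the end of the study in the cabozantinib group, so that change is given below as a description with no test. RNA was sequenced from 24 tumors grown in male C57/BL6 mice of 8-10 weeks from TC2Ras cells, which are mouse TRAMP-C2 prostate cancer cells carrying activated H-Ras and the mouse androgen receptor. The 4 subcutaneous (SC) tumors, taken at week 1, came from mice given an empty vector (ctrl, n = 2) or an interleukin-27 vector (IL27, n = 2) by sonoporation into muscle. The 20 intratibial tumors came from luciferase-marked TC2Ras-Luc cells placed in the tibia, in mice given the empty vector or the IL-27 vector, with either cabozantinib (cabo, an oral inhibitor of MET, VEGF receptors and other kinases) or its polyvinylpyrrolidone vehicle. Day 14 (D14) has 3 tumors in each of the groups ctrl, IL27, cabo and IL27+cabo, and the end of the study (EOS, when the mice reached the ethical endpoint, at no stated day) has 2 tumors in each. Cabo or vehicle was given daily for the first 2 weeks, so in any group that received cabo a later harvest and the end of dosing cannot be told apart. The paper reports longer survival with cabo and IL27+cabo than with ctrl. Harvest day may therefore differ between EOS groups, and treatment and harvest day cannot be told apart there. Every tumor comes from 1 engineered cell line.

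Autotaxin is a secreted lysophospholipase D that makes LPA from lysophosphatidylcholine outside the cell. LPA then acts on G protein-coupled receptors. Lpar1, Lpar2 and Lpar3 belong to the EDG family, and Lpar4, Lpar5 and Lpar6 to a branch related to the purinergic P2Y receptors. The phosphatases encoded by Plpp1 and Plpp3 sit in the plasma membrane and remove the phosphate from extracellular LPA. Autotaxin is made mostly by stromal cells, fat and the endothelium of lymph node venules, and Lpar4 and Lpar6 are known in blood vessel endothelium.

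Libraries held 63729005 to 83782258 counts on genes. The library of mouse 20 (D14 IL27+cabo) had the lowest total and the fewest genes detected, 21269 against 21870 to 24028 in the others. Its correlation with both libraries of its group was 0.912, against 0.954 to 0.976 in all other pairs within a group. Several results that use it, though not all, are therefore given with and without it. Of the prostate tumor cell markers, Hoxb13 and Pbsn had no count in any group. Osteoblast and osteocyte markers were near 0 in all groups, and their mean lay between -3.32 and -2.08 log2 CPM (counts scaled to library size). In bulk tumors, fewer cells of a type and less RNA per cell cannot be told apart.

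The levels of the family differed widely between genes. On a per-length scale (CPM per kb of exon) over the 20 intratibial tumors, Plpp1 had a median of 18.2, Lpar1 17.3, Plpp3 14.98 and Enpp2 12.6. Lpar2 (3.02) and Lpar6 (1.86) were lower, and Lpar4 was close to the detection limit at 0.0587. Among relatives outside the group, Lpar5 had a median of 0.252 and Lpar3 of 0.0233, Plpp2 was the highest at 31.6, and Pla1a, which encodes a phospholipase that makes lysophosphatidylserine, had 2.22. Lpar1 was thus the leading LPA receptor transcript in these tumors on this scale. Enpp2 had the widest range among the 6 members that had counts in every tumor, 8.01-fold between the lowest and the highest intratibial tumor, whereas Plpp1 spanned 1.61-fold and Lpar1 1.73-fold. Both ends of the Enpp2 range were tumors of the cabo groups that were used to choose the gene, so this width is a description. Over the 15 intratibial tumors outside those groups Enpp2 spanned 4.98-fold, and the other 5 of these members 1.61- to 2.86-fold.

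**Figure D1:**
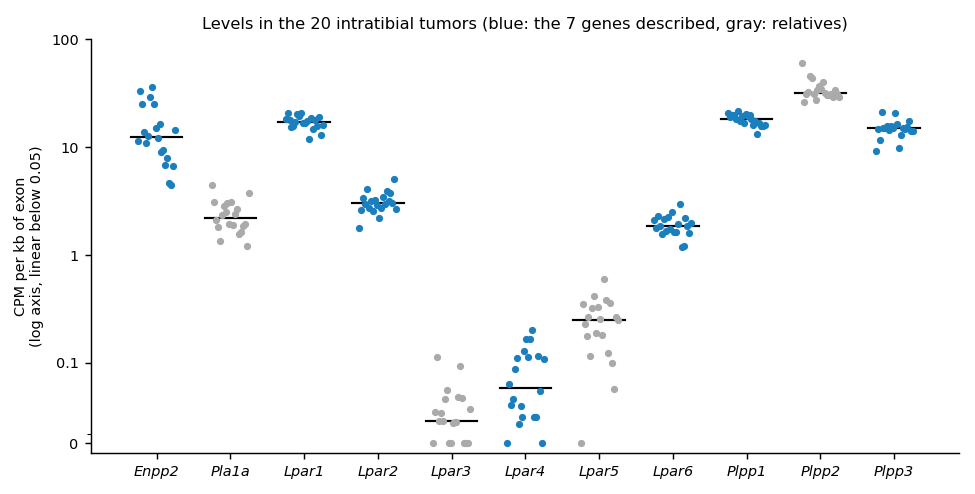
Levels in CPM per kb of exon (log axis, linear below 0.05) of the 7 genes (blue) and 4 relatives (gray) in the 20 intratibial tumors, 1 point per tumor with the median as a line. Lpar1, Plpp1, Plpp3 and Enpp2 have medians between 12.6 and 18.2, and Lpar4 and Lpar3 lie at or below 0.200.

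Enpp2 (ENSMUSG00000022425, GRCm38 chr15:54838901-54952892, minus strand) stood highest in tumors taken under cabo. At D14 the cabo tumors held 168, 208 and 147 CPM and the ctrl tumors 87.5, 70.8 and 94.9 CPM. The cabo tumors were all above the ctrl tumors. The D14 IL27+cabo tumors held 65.5 (mouse 20), 193 and 145 CPM, and the D14 IL27 tumors 80.4, 62.7 and 74.2 CPM. In the combination group mouse 20 lay below every ctrl tumor while the other tumors of that group lay above every ctrl tumor. At EOS cabo was lowest at 26.8 and 26.01 CPM, IL27 at 39.7 and 46.2 CPM, IL27+cabo at 52.6 and 54.5 CPM, and ctrl at 38.7 (mouse 13) and 83.7 CPM (mouse 9). The SC tumors held 51.3 and 58.8 CPM (ctrl) and 63.3 and 76.7 CPM (IL27). Ranked by mean log2 CPM the groups ran D14 cabo, D14 IL27+cabo, D14 ctrl, D14 IL27, SC IL27, EOS ctrl, SC ctrl, EOS IL27+cabo, EOS IL27 and EOS cabo. Of the 9 pairs of neighbors in that order, 2 did not overlap in range, namely EOS IL27+cabo with EOS IL27 and EOS IL27 with EOS cabo.

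**Figure D2:**
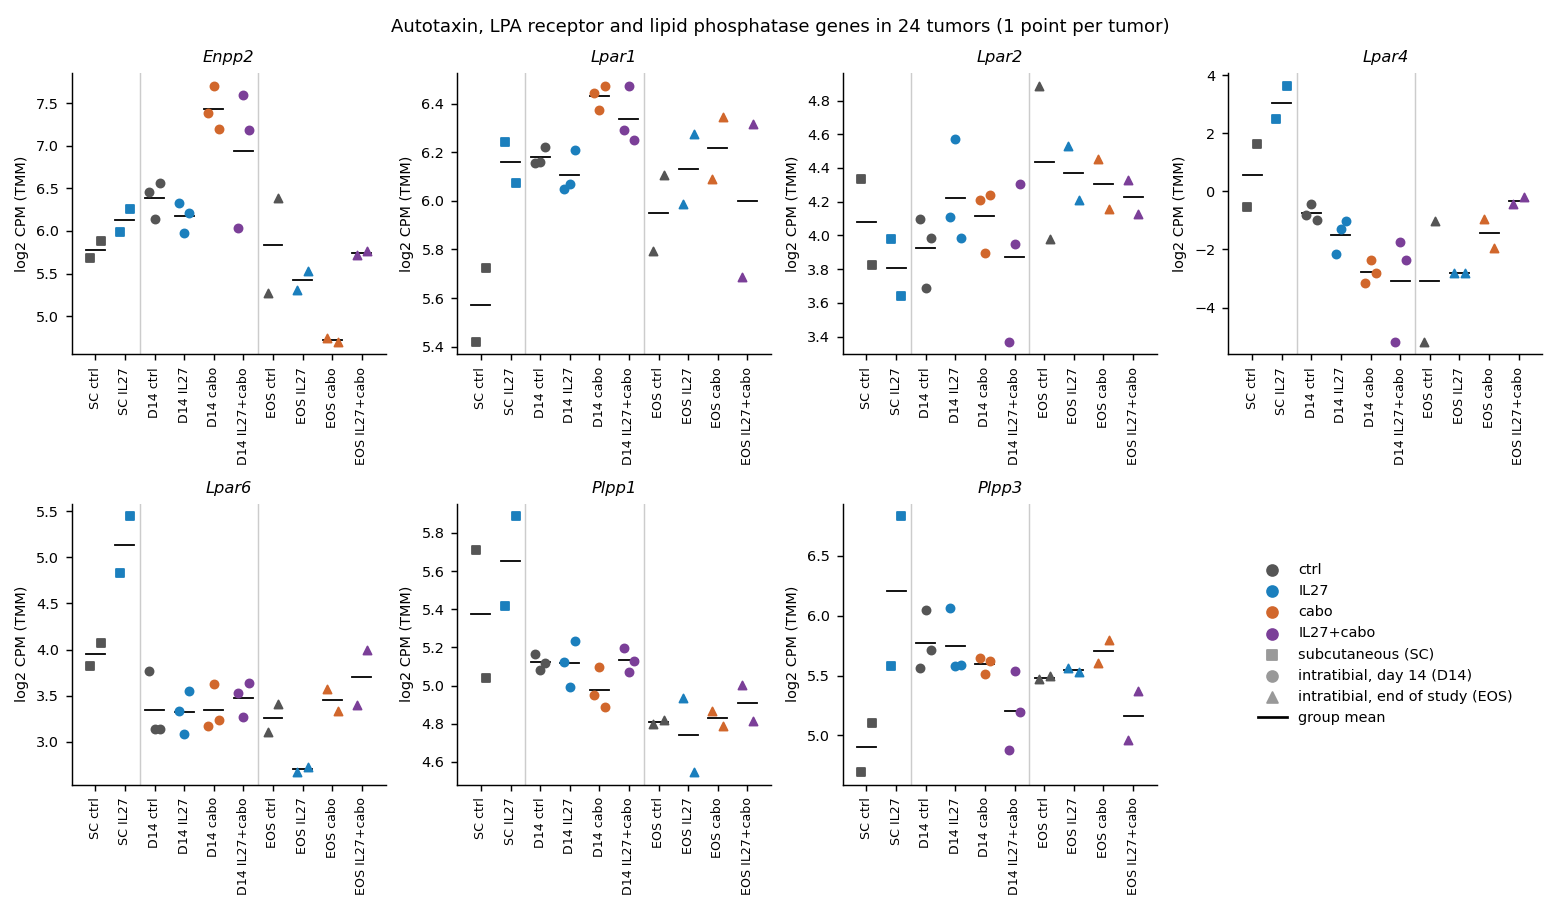
log2 CPM (TMM-scaled) of each of the 7 genes in all 24 tumors, by group, with group means as lines. Each panel has its own axis. Enpp2 is highest in the D14 cabo tumors (mean 7.43) and lowest in the EOS cabo tumors (mean 4.73), and Lpar4 is highest in SC IL27 tumors (mean 3.05).

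The contrast that brought Enpp2 into view went from 174 ± 31.3 CPM (SD, n = 3) at D14 to 26.4 ± 0.596 CPM (n = 2) at EOS in the cabo group, a log2 fold change of -2.72 (SE 0.16), or 6.57-fold lower. The D14 cabo tumors were also 2.05-fold above D14 ctrl (log2 difference 1.04, SE 0.16), and the EOS cabo tumors 2.31-fold below EOS ctrl (log2 difference -1.21, SE 0.32). These comparisons share tumors with the contrast used to choose the gene and are given with no test. The EOS difference from ctrl rested on 1 control, and without mouse 9 it was -0.53. Of 19144 genes tested between EOS and D14 in the cabo group, 2.09% had an adjusted p under 0.05 and 17.6% an unadjusted one (edgeR's quasi-likelihood F test, Benjamini-Hochberg adjustment), from which nothing is read about Enpp2. The other members moved far less over that interval, by log2 differences of -0.20 (Lpar1), 0.20 (Lpar2), 0.11 (Lpar6), -0.15 (Plpp1) and 0.11 (Plpp3). Lpar4 went the other way, from 0.122 to 0.361 CPM (log2 difference 1.56, SE 0.69).

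Against D14 ctrl, the D14 IL27+cabo tumors differed in Enpp2 by 0.68 log2 (SE 0.39, edgeR adjusted p = 0.807), and by 1.00 (SE 0.17, unadjusted p = 0.000652, adjusted p = 0.0592) without mouse 20. Without mouse 22, the highest of the group, it was 0.33 (SE 0.39, adjusted p = 0.741). The D14 IL27 tumors differed by -0.22 (SE 0.16, edgeR adjusted p = 1.0). Against EOS ctrl, Enpp2 differed by -0.52 (SE 0.31) with IL27 and -0.18 (SE 0.31) with IL27+cabo, with edgeR adjusted p-values of 1.0 and 0.845. Both of these changed sign without mouse 9, to 0.16 and 0.50.

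The same interval in the other treatment groups was not used to choose Enpp2 and asks whether its level also differed there. The mean of Enpp2 was lower at EOS in each of them. In the IL27 group it was 42.9 ± 4.59 CPM (n = 2) at EOS and 72.4 ± 8.97 CPM (n = 3) at D14, with no overlap, a log2 difference of -0.75 (SE 0.19, unadjusted p = 0.00491 and adjusted p = 0.818 by edgeR). In the IL27+cabo group it was 53.5 ± 1.33 against 134 ± 64.3 CPM, again with no overlap, a log2 difference of -1.33 (SE 0.49, edgeR adjusted p = 0.925), and -1.67 (SE 0.17, adjusted p = 0.112) without mouse 20. In ctrl tumors it was 61.2 ± 31.8 against 84.4 ± 12.4 CPM with overlapping ranges, a log2 difference of -0.48 (SE 0.31, edgeR adjusted p = 0.543). That control value depended on 1 EOS tumor, at -0.02 without mouse 13 and -1.14 without mouse 9. None of the 3 changes passed the adjusted threshold in edgeR. DESeq2 called the IL27 change (adjusted p = 0.0376).

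Averaged over those 3 groups in 1 fit, a comparison added after the data had been seen, Enpp2 differed by -0.85 log2 (SE 0.23), or 1.80-fold lower at EOS, with an unadjusted p = 0.00262 and an edgeR adjusted p = 0.198. Without mouse 20 the difference was -0.95 (SE 0.16, adjusted p = 0.0364, background 0.342%). An exact two-sided permutation of the time labels within each group gave p = 0.008 over 1000 arrangements, and p = 0.00333 over 600 arrangements without mouse 20. It uses the same values as the fit, in a comparison added after they had been seen. It was run for Enpp2 alone, so no share over all genes stands beside it, and it is no separate support. Of 21214 genes in this fit, 0.127% were called, and no member was among them. The unadjusted p was under 0.05 for 2 members, Enpp2 and Plpp1 (background 11.0%), and DESeq2 called both (background 2.75%). The difference between the change in IL27+cabo and the change in ctrl was -0.84 for Enpp2 (SE 0.50, edgeR adjusted p = 0.585). That value also rested on single tumors, at -1.17 (SE 0.37, adjusted p = 0.314) without mouse 20, -0.50 without mouse 22, -1.31 without mouse 13 and -0.18 (SE 0.51, adjusted p = 0.975) without mouse 9. A larger difference under the combination was not shown by any of these fits.

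**Figure D3:**
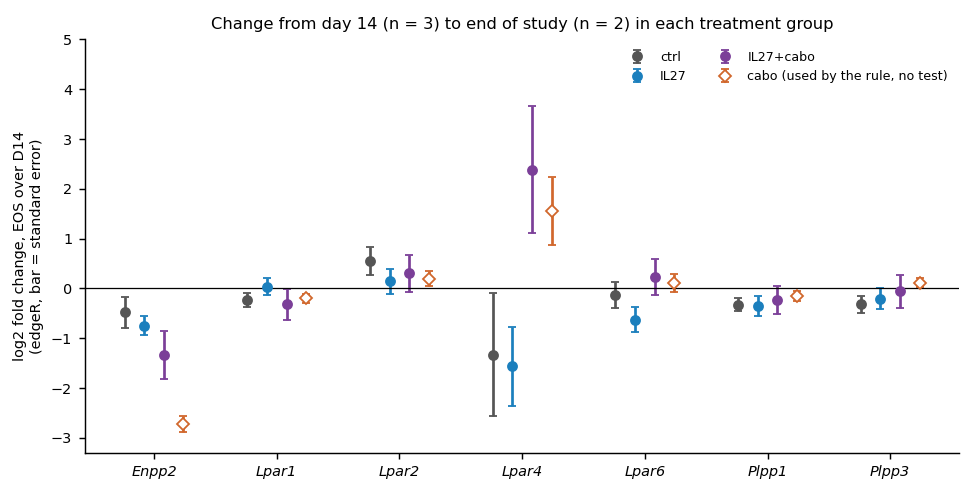
log2 fold change from D14 to EOS (edgeR, bars are standard errors) for each gene in each treatment group, with open diamonds for the cabo group, which was used to choose the genes and was not tested. Enpp2 lies below 0 in all 4 groups (-0.48 to -2.72), and Lpar4 lies below 0 in ctrl and IL27 tumors and above 0 in both groups that had received cabo.

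Levels of other cell types moved over the same samples. The mean log2 CPM of 10 endothelial markers was 2.72 to 3.04 in D14 cabo tumors, 2.66 to 2.84 in D14 IL27+cabo tumors and 3.69 to 4.38 in D14 ctrl tumors, and at EOS it was 4.47 to 4.65 (cabo), 4.40 to 4.63 (IL27+cabo) and 3.64 to 4.09 (ctrl). All 10 were detected in every group. The mean of 10 tendon and synovial markers was 1.83 to 2.14 in D14 cabo tumors and -0.59 to 0.20 in D14 ctrl tumors, and -1.33 to -0.42 in EOS cabo tumors, where Tnmd, Kera and Clec3a were at 0. For 10 fibroblast and marrow stroma markers the ranges were 5.41 to 5.56 (D14 cabo), 4.85 to 5.24 (D14 ctrl) and 5.05 to 5.08 (EOS cabo). For 8 T cell markers they were 0.90 to 1.66 (D14 cabo), 1.85 to 2.13 (D14 ctrl) and -2.13 to -0.74 (EOS cabo). Skeletal muscle markers (12 genes) had means of 5.30 to 5.76 in D14 cabo, -1.88 to 2.33 in D14 ctrl and 1.88 to 4.85 in EOS cabo tumors. With the muscle mean as a covariate the D14 Enpp2 difference between cabo and ctrl was 1.40 (SE 0.38). This is a description, in tumors used to choose the gene. The muscle mean did not overlap between these groups, so that fit cannot separate muscle from treatment. High endothelial venule markers, of a cell type known for autotaxin, had a mean no higher than -1.36 in any tumor, although 1 of the 2 tested was called higher in D14 cabo tumors, and adipocyte markers overlapped between D14 cabo (-0.92 to 0.46) and D14 ctrl (-3.28 to 0.34). Over ctrl, IL27 and IL27+cabo together, from D14 to EOS, 12 of 12 muscle markers had lower values (median log2 difference -4.47), 8 of 8 T cell markers (-1.72) and 8 of 9 tendon and synovial markers (-2.19), whereas 10 of 10 endothelial markers had higher values (0.46). Of these markers edgeR called 1, a tendon marker, and 12, 6, 4 and 4 had an unadjusted p under 0.05. Lower values were also found for 6 of 8 macrophage markers (-0.79), 8 of 10 fibroblast and marrow stroma markers (-0.26) and 7 of 8 Schwann cell and nerve markers (-0.34), with none called and an unadjusted p under 0.05 for 4, 3 and 3. Of the high endothelial venule markers, 4 of 5 had lower values in that fit (median -0.84, 0 called, 1 under 0.05), and 1 of 4 tested was called lower from D14 to EOS in cabo tumors (median -0.78). With the muscle covariate the Enpp2 difference in that fit was -1.02 (SE 0.34, adjusted p = 1.0). The part of the endothelial, high endothelial venule, tendon, stromal, muscle, macrophage, pericyte, Schwann cell and T cell shifts in Enpp2 levels was not tested.

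**Figure D4:**
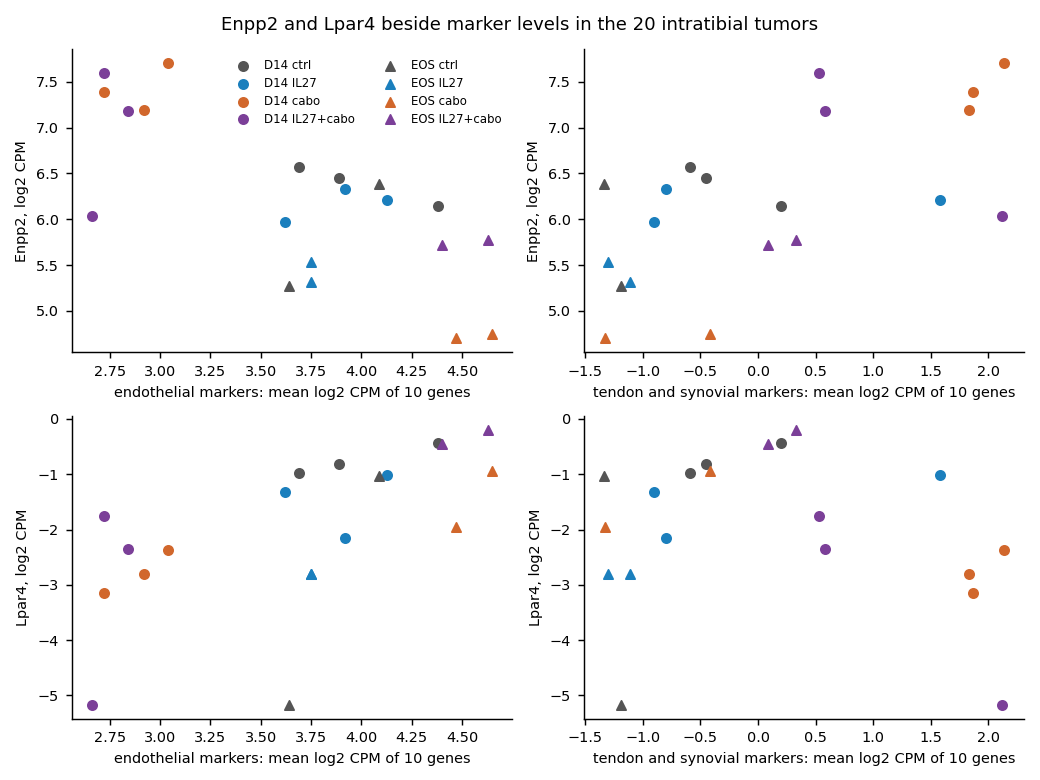
Enpp2 (top) and Lpar4 (bottom) in log2 CPM against the mean log2 CPM of 10 endothelial markers (left) and 10 tendon and synovial markers (right) in the 20 intratibial tumors, colored by treatment and shaped by time. Tumors taken at D14 under cabo have the lowest endothelial means (2.66 to 3.04).

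Among the receptor genes of the group, Lpar4 (ENSMUSG00000049929, GRCm38 chrX:106920625-106933900, plus strand) showed the largest differences at the lowest counts. At D14 the ctrl tumors held 40, 55 and 35 reads (0.542, 0.708 and 0.478 CPM), the cabo tumors 6, 12 and 8 reads (0.0856, 0.165 and 0.115 CPM), the IL27 tumors 14, 24 and 32 reads, and the IL27+cabo tumors 0 (mouse 20), 20 and 12 reads. All cabo and combination tumors lay below all ctrl tumors. The 0 of mouse 20 allows up to 0.0574 CPM, a limit that covers counting error only. Lpar4 passed the count filter at D14 through the ctrl group, where it was high, so the calls that include it are given as a description and not as support. The cabo difference was -2.23 log2 (SE 0.48, unadjusted p = 0.00179, edgeR adjusted p = 0.0667), and DESeq2 gave an adjusted p = 0.0104. The combination difference was -1.94 (SE 1.05, edgeR adjusted p = 0.807), and -1.40 (SE 0.53, adjusted p = 0.323) without mouse 20. Endothelial markers moved with it, as given above, with 4 of 10 called lower in cabo tumors, and the part of these cells in the Lpar4 difference was not tested.

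At EOS the Lpar4 counts were 52 and 64 reads in IL27+cabo tumors (0.707 and 0.846 CPM), 36 and 16 in cabo tumors, 8 and 8 in IL27 tumors, and 0 (mouse 13) and 32 in ctrl tumors. The combination tumors were above every other EOS tumor, whereas at D14 the tumors of that treatment lay below every ctrl tumor. From D14 to EOS the log2 difference was 2.39 (SE 1.27, edgeR adjusted p = 0.925) in IL27+cabo tumors, -1.33 (SE 1.24, adjusted p = 0.678) in ctrl tumors and -1.57 (SE 0.80, adjusted p = 0.818) in IL27 tumors. Without mouse 20 the IL27+cabo value was 1.82 (SE 0.54, unadjusted p = 0.0185, edgeR adjusted p = 0.443). The ctrl value rested on mouse 13 with its 0 reads and was -0.32 (SE 0.61, adjusted p = 0.873) without it. Without mouse 9 the EOS control left held 0 reads, and the fitted -8.43 is no bound. In the ctrl and IL27 groups Lpar4 passed the count filter through the D14 tumors, where it was high, so both values are given as a description and not as support. In IL27+cabo tumors 12 of 12 muscle markers had lower values at EOS (median log2 difference -4.91, 0 called, 12 at an unadjusted p under 0.05). With the muscle mean as a covariate the Lpar4 difference there was -0.24 (SE 3.88, adjusted p = 1.0). The muscle mean did not overlap between the times (5.53 to 7.78 at D14, 1.10 to 2.75 at EOS), so this fit cannot separate muscle from time. The test of the difference between the IL27+cabo and ctrl changes gave 3.71 (SE 1.66, unadjusted p = 0.0399, edgeR adjusted p = 0.539). Of 21563 genes in that comparison, 0.0788% passed the adjusted threshold and no member did, and an unadjusted p under 0.05 was found for 1 member, Lpar4 (background 9.14%), while DESeq2 called 0 (background 0.886%). Without mouse 20 the value was 3.16 (SE 1.40, adjusted p = 0.464), without mouse 13 it was 2.70 (SE 1.45, adjusted p = 0.718), and with the muscle covariate it was 3.94 (SE 1.76, adjusted p = 0.712). Markers of other cell types moved with Lpar4 in the same test of the difference. All 10 endothelial markers had higher values (median 1.91), with 2 called and 9 at an unadjusted p under 0.05, as had 7 of 8 pericyte and mural markers (median 0.30, 0 called, 2 under 0.05) and 8 of 8 macrophage markers (0.60, 0 called, 1 under 0.05), while 11 of 12 muscle markers had lower values (-2.22, 0 called, 1 under 0.05). The part of these cells in the Lpar4 difference was not tested.

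Lpar1 (ENSMUSG00000038668, GRCm38 chr4:58435255-58553898, minus strand), the most widely expressed EDG-family LPA receptor, varied little. At D14 it was 87.0, 82.9 and 88.8 CPM in cabo tumors against 71.4, 71.4 and 74.5 CPM in ctrl tumors. The groups did not overlap, and the difference was 0.25 log2 (SE 0.07, unadjusted p = 0.0102, edgeR adjusted p = 0.141, DESeq2 adjusted p = 0.0475). In 1 edgeR fit of all 10 groups it was 0.25 (SE 0.16, unadjusted p = 0.141). Fibroblast and marrow stroma markers, among other lists above, were also apart (5.41 to 5.56 in cabo, 4.85 to 5.24 in ctrl). The part of these cells in the Lpar1 difference was not tested. With IL27+cabo it was 78.3, 88.7 and 76.0 CPM, 0.17 log2 above ctrl (SE 0.19, edgeR adjusted p = 0.842). At EOS the groups had means between 62.1 and 74.7 CPM, with overlap of all treated groups with ctrl. Lpar2 (ENSMUSG00000031861, GRCm38 chr8:69822429-69831102, plus strand), another EDG-family receptor, lay between 10.3 and 29.5 CPM in the intratibial tumors, and no neighboring groups in the order of its levels were apart in range. Its highest value was EOS ctrl mouse 13. Lpar6 (ENSMUSG00000033446, GRCm38 chr14:73237895-73243294, plus strand), a P2Y-related receptor whose gene lies inside Rb1 on the opposite strand, was lowest in EOS IL27 tumors, at 6.35 and 6.58 CPM, against 10.1, 8.43 and 11.7 CPM in D14 IL27 tumors and 8.56 and 10.6 CPM in EOS ctrl tumors. The EOS IL27 tumors lay below both other groups. These differences were -0.63 (SE 0.25, unadjusted p = 0.0411, edgeR adjusted p = 0.818) and -0.58 (SE 0.26, unadjusted p = 0.0562, edgeR adjusted p = 1.0).

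Of the phosphatases, Plpp1 (ENSMUSG00000021759, GRCm38 chr13:112800792-112867894, plus strand) had somewhat lower values at EOS. In ctrl tumors it was 27.8 and 28.2 CPM at EOS against 35.9, 33.9 and 34.7 CPM at D14, with no overlap, a log2 difference of -0.33 (SE 0.13, unadjusted p = 0.0416, edgeR adjusted p = 0.362). The IL27 difference was -0.36 (SE 0.20) and that of IL27+cabo -0.24 (SE 0.28). Over these 3 groups it was -0.30 (SE 0.11, edgeR adjusted p = 0.343). Plpp3 (ENSMUSG00000028517, GRCm38 chr4:105157347-105232764, plus strand) was 29.3, 46.5 and 36.6 CPM in D14 IL27+cabo tumors and 47.3, 66.0 and 52.4 CPM in D14 ctrl tumors. The ranges were apart, with a log2 difference of -0.55 (SE 0.26, unadjusted p = 0.0717, edgeR adjusted p = 0.807). Without mouse 20, the lowest value, the difference was -0.41 (SE 0.18, adjusted p = 0.381). In EOS IL27+cabo tumors Plpp3 was 31.1 and 41.3 CPM against 44.3 and 45.0 CPM in ctrl tumors, -0.29 log2 (SE 0.16, edgeR adjusted p = 0.454).

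Counted over the members that the rule did not use, 0 were called by edgeR in any intratibial comparison. In D14 cabo against ctrl, 0 of 6 were called where 1.89% of 18627 genes were. An unadjusted p under 0.05 was found for 2 members (Lpar1 and Lpar4, background 18.9%), and DESeq2 called the same pair (background 7.96%). With the trend with GC content and length removed, edgeR called 1, Lpar4 (background 1.89%). Leaving Lpar4 aside, since it passed the filter through ctrl, Lpar1 was the member called by DESeq2. In D14 IL27 against ctrl, 0 of 7 were called and 0% of all genes, no member had an unadjusted p under 0.05 (background 2.76%), and DESeq2 called none (background 0.0108%). In D14 IL27+cabo against ctrl, 0 of 7 were called (background 0.0640%), 0 had an unadjusted p under 0.05 (background 6.20%) and DESeq2 called 0 (background 2.58%). From D14 to EOS, 0 of 7 were called in ctrl (background 0.104%), IL27 (0%) and IL27+cabo (0%), and 1, 2 and 1 members had an unadjusted p under 0.05 (backgrounds 13.1%, 5.05% and 3.83%). DESeq2 called 0, 1 and 0 there (backgrounds 4.52%, 0.550% and 1.68%). Against EOS ctrl, 0 members were called for IL27, cabo and IL27+cabo with backgrounds of 0%, none had an unadjusted p under 0.05 (3.25%, 8.90% and 14.2%), and DESeq2 called 0 in each (0.115%, 1.35% and 4.63%). The members' median log2 difference was -0.09 in D14 cabo against ctrl (6 members, -0.01 over all genes), -0.05 for D14 IL27 (0.02 over all genes), and -0.32, -0.36 and -0.06 from D14 to EOS in ctrl, IL27 and IL27+cabo (-0.004, -0.01 and -0.04 over all genes).

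The remaining genes of the pathway were read from 7 lists on lysophospholipid production, receptors, phosphatases, LPA synthesis inside the cell, G proteins, serum response genes and sphingosine-1-phosphate. Of their 77 genes outside the members, 70 to 72 were tested in each intratibial comparison, and edgeR called 0 in every comparison but 1. An unadjusted p under 0.05 was found at D14 for 1.41% of them with IL27 (2.76% of all genes), 17.1% with cabo (18.9%) and 8.57% with IL27+cabo (6.20%). From D14 to EOS the shares were 12.9% in ctrl (13.1% of all genes), 5.63% in IL27 (5.05%) and 4.23% in IL27+cabo (3.83%), and against EOS ctrl 5.63% with IL27 (3.25%), 9.86% with cabo (8.90%) and 19.7% with IL27+cabo (14.2%). These shares were near those of all genes in most comparisons. From D14 to EOS in cabo, the contrast used to choose the members, 1.41% of the pathway genes were called against 2.09% of all genes. An unadjusted p under 0.05 was found there for 23.9% of them, against 17.6% of all genes. Nothing is read from these shares. The 1 gene was Ccn2 (connective tissue growth factor, a target of LPA signaling through YAP), at 11.3 ± 1.01 CPM (n = 2) at EOS and 23.3 ± 4.80 CPM (n = 3) at D14, given as a description.

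The SC comparison asks what the IL-27 vector did to these genes outside bone. The largest differences were those of Lpar4, Lpar6 and Plpp3, none of which passed the adjusted threshold. Lpar4 held 460 and 952 reads (5.56 and 12.3 CPM) in IL27 tumors and 52 and 231 reads (0.656 and 3.08 CPM) in ctrl tumors, a log2 difference of 2.25 (SE 0.81, unadjusted p = 0.0273, edgeR adjusted p = 0.0955). Lpar6 was 28.5 and 43.6 against 14.1 and 16.7 CPM, 1.23 log2 (SE 0.37, edgeR adjusted p = 0.0573). Plpp3 was 47.9 and 114 against 25.9 and 34.4 CPM, 1.42 log2 (SE 0.46, edgeR adjusted p = 0.07). That value rested on SC IL27 replicate 2, the highest, and was 0.71 (SE 0.62, adjusted p = 0.502) without it, while Lpar4 was 3.76 (SE 0.79, adjusted p = 0.0334) without SC ctrl replicate 2. Without SC ctrl replicate 1 Lpar4 was 1.54 (adjusted p = 0.226), without SC IL27 replicate 1 it was 2.68 (adjusted p = 0.0157), and without SC IL27 replicate 2 it was 1.61 (adjusted p = 0.179). The groups did not overlap in these 3 genes, nor in Enpp2 and Lpar1, which makes 5 of 7 members where 66.9% of all genes tested did not overlap. Enpp2 (0.36, SE 0.31), Lpar1 (0.60, SE 0.32), Plpp1 (0.27, SE 0.36) and Lpar2 (-0.26, SE 0.39) had edgeR adjusted p-values between 0.222 and 0.676. By edgeR 0 of 7 members were called, where 20% of 19360 genes were. An unadjusted p under 0.05 was found for 3 (background 35.4%), and DESeq2 called those 3 (background 31.6%). Other settings called 1 member with RLE scaling (background 20.4%), 3 with all 10 groups in 1 fit (31.7%), 2 with counts divided by 4 (27.9%), 1 without SC ctrl replicate 2 (24.9%), 2 without SC IL27 replicate 1 (16.3%), 2 with a replicate block (21.9%) and 1 with the block and the GC and length trend removed (12.3%). No member was called with no filter, with the GC and length trend removed, with a muscle covariate, without SC ctrl replicate 1 or without SC IL27 replicate 2.

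The SC difference followed the base composition of the transcripts across the whole table. The 10% of genes with the lowest GC content (up to 40.9%) had a median log2 difference of 0.98 and the 10% with the highest (57.3% or more) of -2.89, and Lpar4 (33.7%) and Lpar6 (36.4%) lie in the low part while Plpp3 is at 50.1%. When the trend with GC content and transcript length was removed, Lpar6 was at 0.03 (SE 0.37, edgeR adjusted p = 0.98), Lpar4 at 1.38 (SE 0.62, adjusted p = 0.233), Plpp3 at 1.35 (SE 0.40, adjusted p = 0.0827) and Enpp2 at -0.26 (SE 0.25, adjusted p = 0.624). The 12 skeletal muscle markers, with means of 4.24 to 5.38 in IL27 and -2.57 to -0.50 in ctrl tumors, also moved with the groups, with 11 called higher, and 8 macrophage markers stood at 5.39 to 6.12 against 6.95 to 7.30. With the muscle mean as a covariate the differences were 9.34 for Lpar4 (SE 2.15, edgeR adjusted p = 0.0772), 3.95 for Plpp3 (SE 1.53, adjusted p = 0.23), 2.60 for Lpar6 (SE 1.47, adjusted p = 0.412) and 1.19 for Enpp2 (SE 1.37, adjusted p = 0.713), with larger errors, since the muscle mean differs between the groups without overlap. T cell markers (8 genes) lay apart as well, at 1.28 to 1.41 in IL27 and -0.52 to -0.08 in ctrl tumors with 2 called higher. So did 8 Schwann cell and nerve markers, at 1.47 to 2.14 against 3.29 to 3.33 with 2 called lower. Prostate tumor cell markers were at -1.43 to -1.21 against -0.82 to -0.71, with 1 called lower. Tendon and synovial markers were at -0.75 to -0.16 against -0.01 to 0.44, with 1 called lower. Cartilage markers were at -2.84 to -2.74 against -2.49 to -1.85, with 0 called. The means of the fibroblast and marrow stroma markers (3 called higher, 2 lower), the pericyte and mural markers (2 higher, 3 lower) and the endothelial markers (2 lower) overlapped between the groups. The part of these cells, muscle included, was not tested, since the covariate fit cannot separate muscle from treatment without overlap. In the intratibial comparisons the medians of the same shares of genes lay between -0.32 and 0.30.

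**Figure D5:**
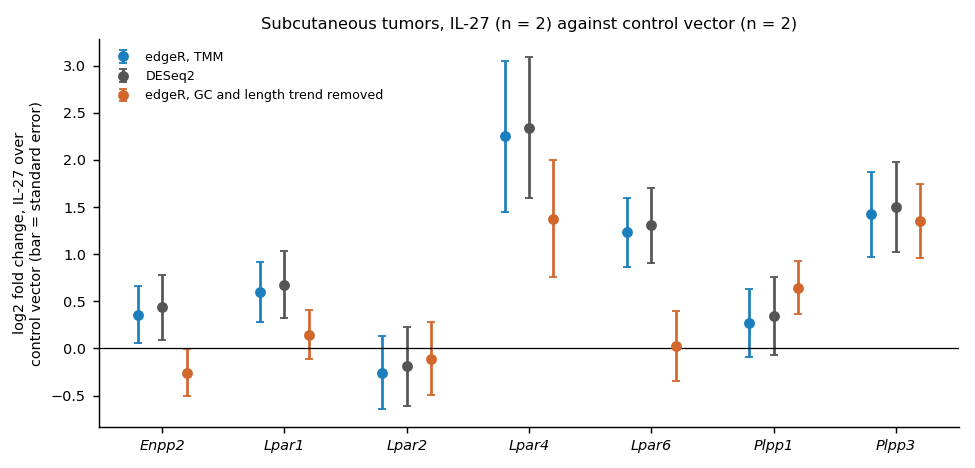
log2 fold change of each gene in SC tumors, IL27 (n = 2) over ctrl (n = 2), with standard errors, by edgeR, by DESeq2 and by edgeR after removal of the trend with GC content and length. Lpar6 goes from 1.23 to 0.03 when the trend is removed, and Plpp3 from 1.42 to 1.35.

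Among the other pathway genes in SC tumors, 20 of 71 tested (28.2%, against 20% of all genes) were called, 3 higher and 17 lower, and the 4 with the smallest p all fell. These were Pla2g6, a calcium-independent phospholipase, at 1.36 ± 0.150 against 68.9 ± 21.3 CPM (log2 -5.64, SE 0.44), Arhgef1, a guanine nucleotide exchange factor downstream of LPA receptors, at 1.59 ± 0.646 against 60.8 ± 2.95 CPM (-5.25, SE 0.45), Srf, the serum response factor (-4.92, SE 0.42), and Agpat1, which acylates LPA inside the cell (-3.98, SE 0.42), each with an edgeR adjusted p of 0.00138 or 0.00175 and n = 2. The 3 that rose, named after their values were seen, were P2ry10, a lysophosphatidylserine receptor (2.74, SE 0.42), the cytokine gene Il6 (2.85, SE 0.53) and Sgpp1, a sphingosine-1-phosphate phosphatase (1.53, SE 0.35), with edgeR adjusted p-values between 0.0052 and 0.0231. With the trends with GC content and length removed together, 8 of 71 were called (11.3%, against 8.62% of all genes), 2 higher and 6 lower, and 6 of the 8 were also among the 20. The 2 higher, named after their values were seen, were Egr1, an immediate early transcription factor (2.59, SE 0.38, edgeR adjusted p = 0.0107, from 0.36 before removal), and Rhob, a small GTPase (1.34, SE 0.30, adjusted p = 0.0361, from -0.58). Pla2g6 (58.3% GC) was at -3.11, Arhgef1 (60.5%) at -2.39, Srf (64.4%) at -1.79 and Agpat1 (59.0%) at -1.34 after removal, with edgeR adjusted p-values between 0.00581 and 0.0406. P2ry10 (1.59), Il6 (1.70) and Sgpp1 (1.06) then had adjusted p-values between 0.0508 and 0.099.

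Promoter sequence is shown for the 3 members with the largest SC differences, none of them called by edgeR, because IL-27 is known to signal through STAT factors. RefSeq promoters (GRCm38.p6) were found for 5 of the 7 members, and none for Enpp2 or Plpp1 in the table used. Each run holds the 250 bases before the start on the plus strand, with capitals for any match, on either strand, to the GAS-type STAT motif TTCNNNGAA, the AP-1 motif TGANTCA, the TATA box TATAAA, the GC box GGGCGG or the CCAAT box. The windows are chrX:106920375-106920624, chr14:73237641-73237890 and chr4:105157097-105157346.
Lpar4: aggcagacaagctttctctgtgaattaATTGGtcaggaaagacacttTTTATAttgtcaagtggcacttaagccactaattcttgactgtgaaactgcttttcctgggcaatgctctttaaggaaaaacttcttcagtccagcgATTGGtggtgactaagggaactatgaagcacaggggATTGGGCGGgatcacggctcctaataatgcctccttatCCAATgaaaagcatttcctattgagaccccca
Lpar6: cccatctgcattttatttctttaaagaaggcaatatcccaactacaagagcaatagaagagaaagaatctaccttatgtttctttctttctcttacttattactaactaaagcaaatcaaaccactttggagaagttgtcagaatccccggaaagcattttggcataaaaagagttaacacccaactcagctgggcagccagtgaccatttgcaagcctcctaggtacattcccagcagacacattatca
Plpp3: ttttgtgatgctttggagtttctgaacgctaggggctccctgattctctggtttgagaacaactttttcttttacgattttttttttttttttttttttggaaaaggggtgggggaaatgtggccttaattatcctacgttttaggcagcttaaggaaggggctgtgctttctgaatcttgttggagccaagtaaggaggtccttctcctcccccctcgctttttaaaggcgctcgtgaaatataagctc
None of the 5 members' windows matched TTCNNNGAA, which 7.0% of 32851 promoters of this length hold. Lpar4 had 4 matches to CCAAT (present in 33.8% of promoters), 1 to TATAAA (12.4%) and 1 to GGGCGG (32.7%), the last sharing bases with a CCAAT match on the other strand. Lpar6 and Plpp3 matched none of the 5 motifs in these windows. A match is a description of letters and not a bound site.

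The genes whose pattern over the 20 intratibial tumors was most like that of Enpp2, among 13893 genes with a median of at least 1 CPM, were Adcy8 (r = 0.888), Gxylt2 (0.854), Col6a5 (0.852), Cd80 (0.847) and Ccl22 (0.828), as Pearson correlations of log2 CPM given as a description, since the tumors share groups and times. Ccl22, a chemokine of dendritic cells and macrophages, averaged 6.81 CPM in D14 cabo and 1.27 CPM in EOS cabo tumors, against 2.73 CPM in D14 ctrl and 2.03 CPM in EOS ctrl tumors. Col6a5, a collagen VI chain, averaged 23.01 and 6.09 CPM in D14 and EOS cabo tumors. By rank correlation 3 of the 5 recurred, and over all 24 tumors 1 did. Genes most like the other members given here were Olfml3, Idh1 and Lrrc1 for Lpar1 (0.836 to 0.922), Cipc, Timm29 and Gm27240 for Lpar2 (0.831 to 0.865), Zbed3, Fam83d and Hnrnpll for Lpar4 (0.86 to 0.878), Ppfia4, Sirpb1a and Klhl6 for Lpar6 (0.813 to 0.819), and Fzd8, Ghr and Colec12 for Plpp3 (0.83 to 0.868). Between members the highest correlation over these tumors was 0.54, for Enpp2 with Lpar1, and the lowest -0.49, for Lpar1 with Lpar2.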

How the data were processed

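The authors prepared stranded poly(A) libraries, sequenced paired ends, trimmed reads with cutadapt and mapped them with HISAT2 to the mouse genome. StringTie estimated expression. The submitters' processing notes list the build GRCh38, whereas the identifiers are mouse, so GENCODE M21 (GRCm38) was used here for names (55141 of 55401 identifiers matched). The deposited table holds raw counts per Ensembl gene. How strand was used in counting is not given in the sources used here. Exons of Enpp2 (with Gm26684), Lpar6 (with Rb1) and Plpp1 (with Mtrex) overlap genes of the opposite strand, so their reads are uncertain there. Among low values, 30.4 to 35.5% of counts were multiples of 4, so counting intervals may be too narrow.

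Counts were tested with edgeR 4.0.16 (R 4.3.3; TMM scaling, filterByExpr, quasi-likelihood F test, Benjamini-Hochberg adjustment over all genes), separately for each comparison, except that the EOS treatments shared 1 fit. CPM are TMM-scaled, log2 CPM used a prior count of 2, and a call is an adjusted p under 0.05. Alternatives were DESeq2 1.42.0, RLE scaling, no filter, 1 fit of all 10 groups, each library left out, GC and length trend removed (splines, 5 df), counts divided by 4, a muscle covariate and, for SC tumors, a replicate block. All 7 members passed the filter in every comparison. The steps were tested on simulated data.

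The members and lists were chosen with earlier results of these data known. Named are the members, the 4 other pathway genes with the smallest p among those called per comparison, and the 5 (Enpp2) or 3 genes most correlated with each member. The genes most like Plpp1 and some marker genes are not reported here. Intratibial labels carry mouse numbers. SC labels do not say whether the tumors came from separate mice, so p-values there measure only the spread between these samples, which may be technical. Intervals and limits cover counting error only.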

Additional observations from a re-analysis of the deposited data

Results flagged for a closer look

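Lpar4 differed in opposite directions between D14 and EOS, with no overlap of its tumors at the 2 times: -1.33 log2 in ctrl and -1.57 in IL27, against 2.39 in IL27+cabo. Without mouse 20 the IL27+cabo value was 1.82 (SE 0.54, edgeR adjusted p = 0.443). The difference between ctrl and IL27+cabo was tested at 3.71 (edgeR, unadjusted p = 0.0399, adjusted p = 0.539), and that between IL27 and IL27+cabo was not tested. The ctrl side rested on 1 library at 0 reads, at -0.32 (edgeR adjusted p = 0.873) without mouse 13, and the tested difference was then 2.70 (adjusted p = 0.718). The ctrl and IL27 values are a description, since Lpar4 passed the count filter there through the D14 tumors, where it was high. The IL27+cabo value was -0.24 (SE 3.88) with the muscle mean as a covariate. That mean did not overlap between the times (5.53 to 7.78 at D14, 1.10 to 2.75 at EOS). The fit therefore cannot separate muscle from time, and nothing is read from its sign. The tested difference was 3.94 (edgeR adjusted p = 0.712) with this covariate. The combination effect on Lpar4 against ctrl was -1.94 at D14 and 1.75 at EOS, which is the same contrast of these 4 groups, and the EOS value was 0.75 (edgeR adjusted p = 0.718) without mouse 13. In that contrast 10 of 10 endothelial markers also had higher values (median log2 1.91, 2 called), and their part in it was not tested. Every tumor behind these values had at most 64 reads for Lpar4, and mouse 20 and mouse 13 had 0.

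The IL27 effect on Lpar4 was 2.25 in SC tumors and -0.74 in D14 tumors, and that on Lpar6 was 1.23 in SC tumors and -0.58 in EOS tumors, each with no overlap between the groups compared. Neither difference between models was tested. With the GC and length trend removed the SC values were 1.38 for Lpar4 and 0.03 for Lpar6.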

How the results depend on the processing

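Of 584 alternatives computed for the members' main values and counts, 535 kept their direction and side of the threshold. No member was called by edgeR in any main fit, so staying on that side says little, and the share is a description. The alternatives include Enpp2 in D14 cabo against ctrl, which shares tumors with the contrast used to choose the gene. Among 775 further fits of members, 55 changed direction and 1 passed the threshold (Lpar1 in SC tumors, 1 fit of all 10 groups). In SC tumors the number of members called was 0 by edgeR, 3 by DESeq2, 1 with RLE scaling, 3 with all 10 groups in 1 fit, 2 with counts divided by 4, and 0 to 2 with a library left out. With the GC and length trend removed, Enpp2 in SC tumors was -0.26. SC replicate numbers were shared only as numbers (the deviations of same-numbered tumors correlated at 0.015 over 22301 genes). With the replicate block 2 members were called (Lpar4 2.54, adjusted p = 0.00544, and Plpp3 1.32, adjusted p = 0.0443), Enpp2 stayed at 0.36 (adjusted p = 0.588), and with block and trend removal together 1 was called and Enpp2 was at -0.26. In D14 cabo tumors 2 members were called by DESeq2 and 1 (Lpar4, -2.45, edgeR adjusted p = 0.0456) with the GC and length trend removed. Enpp2 was 1.40 there with the muscle covariate, in a fit that cannot separate muscle from treatment. DESeq2 called 1 member from D14 to EOS in IL27 (Enpp2, -0.75) and 2 over the 3 groups (Enpp2 -0.85, adjusted p = 0.0185, and Plpp1). With a library left out the latter count was 0 to 1, and Enpp2 there lay between -1.08 and -0.71 (-0.95 without mouse 20). Against EOS ctrl, leaving out each library gave Enpp2 -0.98 to 0.16 (IL27), -1.66 to -0.53 (cabo) and -0.64 to 0.50 (IL27+cabo). Lpar4 ranged from -2.01 to 6.06 (IL27), -0.36 to 7.71 (cabo) and 0.75 to 8.82 (IL27+cabo), the upper values being fitted against 1 control library at 0 and so no bound, and over the 3 groups from -2.52 to 0.15, at 0.08 without mouse 22. With the muscle covariate Lpar4 was -0.24 from D14 to EOS in IL27+cabo, -0.035 in EOS cabo against ctrl and 0.035 over the 3 groups. In IL27+cabo and in EOS cabo against ctrl the muscle mean did not overlap, so those fits cannot separate muscle from time or treatment. The causes of these differences were not tested. With 2 or 3 tumors a group and at most 64 Lpar4 reads in any intratibial tumor, depth and sample number limit what could be called.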
